A study of Mus musculus with 4 samples.

Results

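The miR-130 and miR-301 family was followed in small RNA libraries of the mouse medial prefrontal cortex. Its members were taken by name from the deposited table of known miRNAs, which lists 6 mature arms of the 4 hairpins miR-130a, miR-130b, miR-301a and miR-301b that the rule named among 1038 miRNAs in all. These are mmu-miR-130a-3p, mmu-miR-130b-3p, mmu-miR-130b-5p, mmu-miR-301a-3p, mmu-miR-301a-5p and mmu-miR-301b-3p. The mice were males of the strain C57BL/6 in the labels, C57BL/6J in the study's methods, and entered the study at postnatal day 21 with a period of adaptation. The control group held 2 libraries from unstressed mice. The CUMS group held 2 libraries from mice that then went through chronic unpredictable mild stress, a schedule of varied mild stressors with social isolation, for 3 weeks. Only stressed mice that showed depression-like behavior in every test were sequenced, and the tissue was taken 24 h after the tests. The comparison asks which miRNAs differ in this cortex between depression-like and control mice.

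A miRNA guides an Argonaute protein to messenger RNAs that pair with its seed, the bases near its 5′ end, and lowers their stability and translation. Each hairpin can release an arm from its 5′ side (5p) and an arm from its 3′ side (3p), and one of them is usually kept. The 3p arms of miR-130 and miR-301 share a seed and are therefore thought to reach overlapping sets of targets. They are known for their part in blood vessel growth, fat cell differentiation, and TGF-beta and BMP signalling.

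The mature sequences are shown because the seed defines the family and because the arms of one hairpin have different seeds. RefSeq with build GRCm38.p6 held 5 of the 6 mature sequences, printed here 5′ to 3′ with bases 2 to 8, the seed, in capitals.
mmu-miR-130a-3p: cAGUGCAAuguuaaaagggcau
mmu-miR-130b-3p: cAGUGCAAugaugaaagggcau
mmu-miR-301a-3p: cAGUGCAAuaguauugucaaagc
mmu-miR-130b-5p: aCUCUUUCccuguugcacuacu
mmu-miR-301a-5p: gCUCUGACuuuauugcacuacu
The remaining member is mmu-miR-301b-3p. The 3 printed 3p arms had the same seed, AGUGCAA. MiR-130a-3p and miR-130b-3p differed by U11A and A13G, counted from 1 at the 5′ end with the base of miR-130a-3p first, and were identical at 20 of 22 bases. MiR-301a-3p is 23 bases long and shared its first 9 bases with each of them, and its 3′ end differed. The 5p arms carried other seeds, CUCUUUC in miR-130b-5p and CUCUGAC in miR-301a-5p, but ended in the same 10 bases. Within those arms the letters UUGCAC, the complement of GUGCAA in the 3p seed, lay at bases 13 to 18. The RefSeq table also gave the seed AGUGCAA to mmu-miR-130c, mmu-miR-6341, mmu-miR-6389 and mmu-miR-721, and the deposited table listed none of these.

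The 4 hairpins lie at 3 places in the genome (GRCm38, GENCODE M21). Mir130a is at chr2:84741115-84741178 on the minus strand, outside any other annotated gene and 991 bp from Gm19426. Mir301, the hairpin of miR-301a, is at chr11:87113004-87113089 on the plus strand in an intron of Ska2, a gene of the spindle and kinetochore complex. Mir130b at chr16:17124061-17124142 and Mir301b at chr16:17124400-17124496 are both on the minus strand, in introns of 2610318N02Rik, and are 257 bases apart. The longest run of bases that any 2 of the 4 hairpins shared was 16, shorter than the shortest read counted, 18 nt.

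For each miRNA the deposited table holds one mean of normalized counts for control and one for CUMS. Whole reads of each library could be recovered from these means, so the values are given per library. The libraries are called a and b within a group, a being that with the larger size factor (the divisor that scales its depth), and the letters do not pair libraries across groups. The 4 libraries held 9589323 to 10783592 miRNA reads, and 3 reads, the limit that a count of 0 allows, correspond to 0.278 to 0.313 counts per 1e6 miRNA reads (CPM). The miRNAs of neurons and cortex on a list of 5 summed to 67063 to 94374 CPM, and those of liver to at most 0.104 CPM. Control library b stood apart: 8 epithelial miRNAs summed to 93217 CPM there and to 393 to 721 CPM in the other 3 libraries. MiR-182-5p alone gave 89223 CPM of that sum in control library b, and the rest of the list was also highest there. Family values are therefore also given without this library. In a piece of tissue, fewer cells of a type and less RNA per cell cannot be told apart.

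The family was led by 2 arms at nearly the same level, and the other 4 lay far below them. MiR-130a-3p, the most abundant member, had 4489 reads in control library a, 4756 in control library b, 4592 in CUMS library a and 4045 in CUMS library b. Division by the size factors turned these, in the same order, into 4391 and 4754 for control, then 4324 and 4286 for CUMS. Both CUMS libraries were lower than both control libraries, by a small margin. MiR-301a-3p was counted 4148 and 4726 times in the control libraries a and b, against 4449 and 3738 times in the CUMS libraries a and b. Its normalized reads, 4057 and 4724 against 4189 and 3960, overlapped, since CUMS library a lay between the control libraries. These arms ranked 100 and 105 of 1038 miRNAs by mean level.

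The arms of the Mir130b and Mir301b cluster formed the middle of the family. Their values are given here with the control libraries a and b first and the CUMS libraries a and b after "against". MiR-130b-3p gave 377 and 375 reads against 376 and 335 in CUMS, or 369 and 375 normalized reads against 354 and 355. Its libraries were nearly equal within each group, and both CUMS libraries were lower. MiR-301b-3p gave 214 and 228 reads against 186 and 149 in CUMS, or 209 and 228 normalized reads against 175 and 158. Both CUMS libraries of miR-301b-3p were below both control libraries. MiR-130b-5p gave 181 and 263 reads against 175 and 143 in CUMS, or 177 and 263 normalized reads against 165 and 152. For this arm control library b was far above the other 3, and control library a was only slightly above the CUMS libraries. MiR-301a-5p, the least abundant member, gave 21 and 31 reads against 34 and 21 in CUMS, or 20.5 and 31.0 normalized reads against 32.0 and 22.2. Its groups overlapped fully, each having a lower and a higher library.

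**Figure D1:**
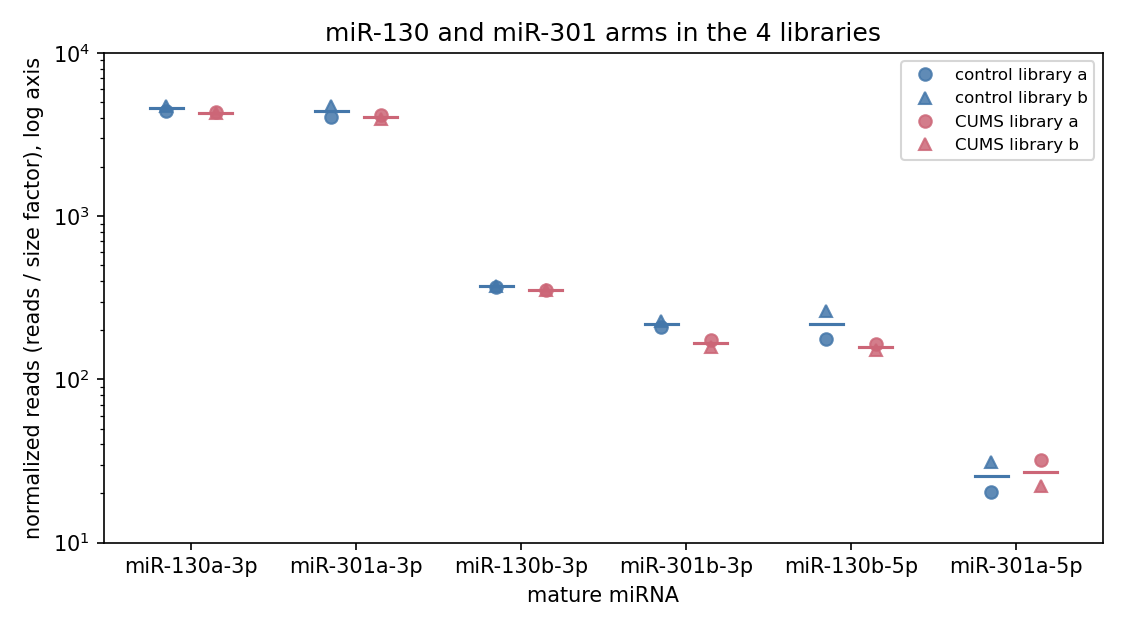
Normalized reads (reads divided by the size factor, log axis) of the 6 arms in each of the 4 libraries, with a horizontal line at each group mean. MiR-130a-3p and miR-301a-3p lie between 3960 and 4754, the arms of the Mir130b and Mir301b cluster between 152 and 375, and miR-301a-5p between 20.5 and 32.0.

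In the order of levels, miR-130a-3p was 1.05 times miR-301a-3p over the 4 libraries, and although their ranges overlapped, miR-130a-3p was the higher in 4 of 4 libraries. MiR-301a-3p was 11.7 times miR-130b-3p, and miR-130b-3p was 1.89 times miR-301b-3p, both with ranges that did not overlap. MiR-301b-3p and miR-130b-5p were neighbours that did not differ beyond their spread, with a ratio of 1.02 and overlapping ranges. MiR-130b-5p was 7.15 times miR-301a-5p. Levels of different miRNAs also carry the ligation preference of each sequence, which was not tested.

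The 4 arms that end in 3p together had 9228 and 10085 reads in the control libraries, against 9603 and 8267 in the CUMS libraries, which is 0.0862% to 0.0935% of the miRNA reads of a library. MiR-130a-3p and miR-301a-3p made up 93.6% to 94.1% of these reads in every library. Summed normalized reads of the 3p arms were 9554 ± 746 in control and 8900 ± 200 in CUMS (mean ± SD, n = 2 each), a ratio of 0.932 with overlapping groups (exact permutation test, two-sided, p = 0.667). With 2 libraries against 2, this test cannot give a p below 0.333. The ratio of miR-301a-3p to miR-130a-3p reads was 0.924 and 0.994 in control, against 0.969 and 0.924 in CUMS, also with overlap.

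Of the 6 arms, 5 had a lower mean in CUMS, and none moved by 1.5-fold. The mean of miR-130a-3p was 4572 ± 257 in control and 4305 ± 27 in CUMS (SD, n = 2), a log2 ratio of -0.09. For miR-301a-3p the log2 ratio was -0.11 and for miR-130b-3p -0.07, so these 3 arms changed by -4.66% to -7.20%. The values of miR-301b-3p, the remaining 3p arm of the family, and of miR-130b-5p lay farther from 0, at -0.39 and -0.48, changes of -23.8% and -28.1%. The spread of log2 values within groups was 0.097 for miR-301b-3p and 0.29 for miR-130b-5p. MiR-301a-5p had a log2 ratio of 0.07, against a spread within groups of 0.40.

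No member passed a test of the difference. The edgeR quasi-likelihood test, run on the 719 miRNAs that reached 5 reads in any library, estimated log2 fold changes of -0.43 for miR-301b-3p and -0.51 for miR-130b-5p, each with an adjusted p of 0.849. Before adjustment over all 719, edgeR gave these arms 0.0614 and 0.0855. The adjusted edgeR p of the other 4 members was 0.931 to 0.987. The 95% intervals of DESeq2 for the ratio of CUMS to control ran from 0.499 to 1.15 for miR-301b-3p and from 0.456 to 1.13 for miR-130b-5p. They were narrower for miR-130a-3p, at 0.737 to 1.19, for miR-301a-3p, at 0.719 to 1.19, and for miR-130b-3p, at 0.676 to 1.33, and these lie within a 1.5-fold change in either direction. For miR-301a-5p the interval, 0.393 to 2.81, left a wide range of changes undetectable at this depth. Exact permutation tests on normalized reads gave p = 0.333 for the 4 members without overlap and p = 0.667 for miR-301a-3p and miR-301a-5p, unadjusted. The 2 libraries of a group are separate samples per the labels. The edgeR and DESeq2 p-values weigh each difference against a spread between libraries that is fitted with information from all miRNAs tested. The permutation p uses only the 4 values of the arm itself.

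**Figure D2:**
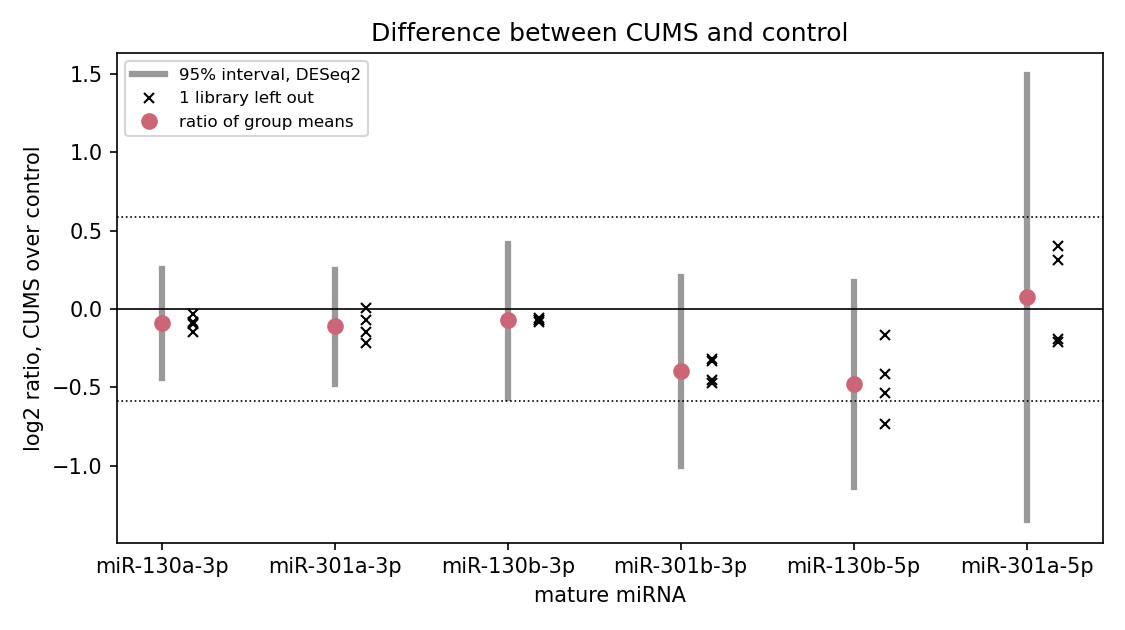
Log2 ratio of CUMS over control for each arm (circles), with the 95% interval of DESeq2 (bars), the ratio with 1 library left out (crosses) and dotted lines at a fold of 1.5. All 6 intervals include 0, and the crosses of miR-130b-5p reach from -0.73 to -0.16.

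Counts over the whole table give the scale of these values. A lower mean in CUMS was found for 5 of 6 members and for 47.7% of the 719 miRNAs tested. The groups did not overlap for 4 of 6 members, against 33.8% of all, and those 4 had both CUMS libraries below both control libraries, against 17.1% of all. With reads scaled to the total of each library in place of the size factors, 2 of 6 members, miR-301b-3p and miR-130b-5p, had groups without overlap. The share over all miRNAs was not computed with this scaling, so this count has no background beside it. None of the 6 members was past a fold of 1.5, whereas 25.6% of the 628 miRNAs with a group mean of at least 5 were. At a smaller threshold, a log2 ratio of 0.32 in either direction, the count was 2 of 6 members, again miR-301b-3p and miR-130b-5p, against 42.2%. At an edgeR p under 0.05 there were 0 members and 4.17% of all miRNAs (30 of 719, with 24 by DESeq2 and 29 by limma), and at an adjusted p under 0.05 there were 0 members and 0.0% of all miRNAs by each of the 3 tools. The median log2 ratio was -0.10 over the members and 0.02 over the 719. For the 304 miRNAs whose mean level was 100 or more, the median distance of the log2 ratio from 0 was 0.15, more than that of miR-130a-3p, miR-301a-3p and miR-130b-3p and less than that of miR-301b-3p and miR-130b-5p.

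**Figure D3:**
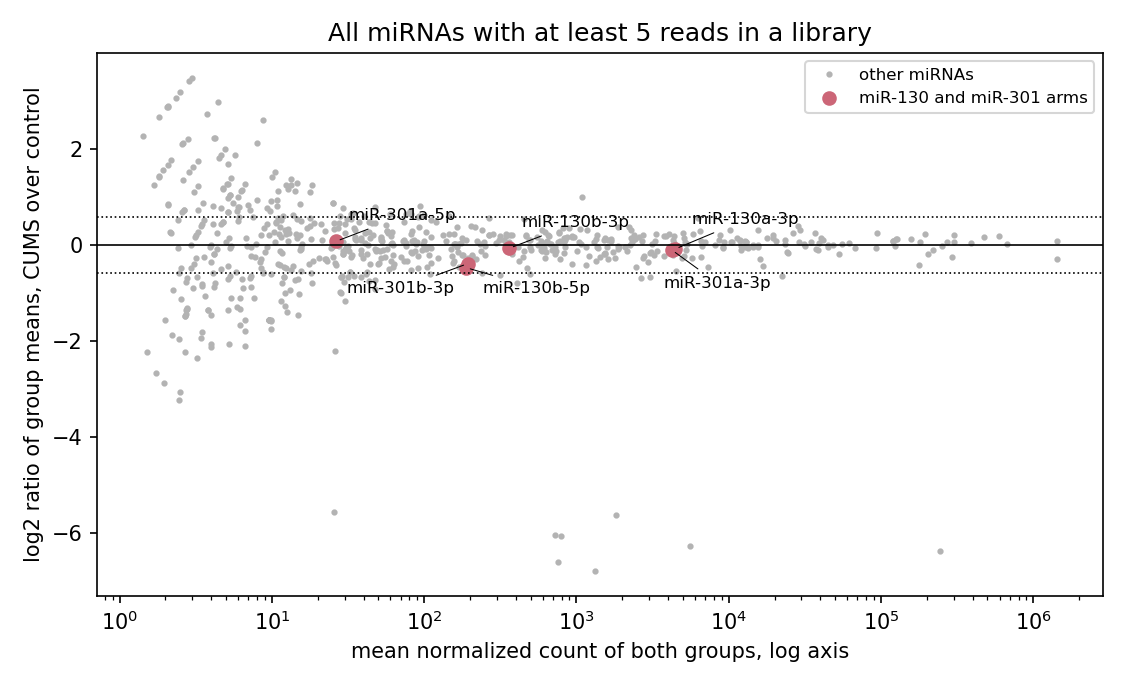
Log2 ratio of CUMS over control against the mean normalized count of both groups (log axis) for 701 of the 719 miRNAs tested, leaving out 18 with a group mean of 0. Dotted lines mark a fold of 1.5, and all 6 family arms (red) lie between them.

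Libraries of the same group differed from each other in some arms as much as the groups did. In control, library b was 1.48 times library a for miR-130b-5p (95% exact interval of counting error 1.22 to 1.80), after scaling. It was 1.16 times library a for miR-301a-3p (1.12 to 1.21) and 1.08 times for miR-130a-3p (1.04 to 1.13), also beyond counting error. The same ratio was 1.51 for miR-301a-5p (0.840 to 2.76), 1.09 for miR-301b-3p (0.900 to 1.32) and 1.02 for miR-130b-3p (0.879 to 1.18), within counting error. Without control library b, which carried the epithelial miRNAs, the log2 ratio of miR-130b-5p was -0.16 and that of miR-130a-3p -0.03, while miR-301b-3p was at -0.33 and miR-130b-3p at -0.06. The ratio of miR-301a-3p was then 0.01 and that of miR-301a-5p 0.40. With and without this library, the log2 ratios of miR-301b-3p and miR-130b-3p were farther from 0 than their spread within groups, 0.012 for miR-130b-3p. That spread was taken from all 4 libraries in both cases, since 1 control library alone has none. Counting error in the smallest library of miR-130b-3p was 5.46%, however, more than its change of -4.66%. Among the marker lists, the oligodendrocyte miRNAs were also lower in both CUMS libraries, with sums of 628 and 722 CPM against 765 and 776 in control. Of the 3 listed, miR-219a-2-3p and miR-338-3p were lower in both CUMS libraries. MiR-219a-5p overlapped in CPM but was lower in both CUMS libraries when divided by the size factors. In CPM the neuronal sums were higher in CUMS, with 82826 and 94374 against 82472 and 67063. The lower CUMS value hardly differed from the higher control value. Divided by the size factors, as the family values are, the neuronal sums overlapped between the groups. The total of control library b, by which its CPM are scaled, held 962144 reads of miR-182-5p, against 3931 to 6566 in the other libraries. Of the 5 neuronal miRNAs, only miR-124-3p was higher in both CUMS libraries, and the other 4 overlapped. The sum of the immune list, at 114 to 161 CPM, was nearly all miR-142a-5p and in CPM was higher in both CUMS libraries. Divided by the size factors, this sum and miR-142a-5p overlapped between the groups. MiR-142a-3p was lower in both CUMS libraries and miR-223-3p overlapped. The muscle sum, at 19.4 to 32.3 CPM and nearly all miR-133a-3p, was lower in CUMS. Endothelial (1183 to 1453 CPM), smooth muscle (19504 to 28885 CPM) and red cell lists (35.1 to 57.6 CPM) overlapped between the groups. The part of these lists in the family's values was not tested.

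The share of reads in the 5p arm differed widely between the hairpins. For miR-130b, 5p reads made up 32.4% and 41.2% of the reads of both arms in control, against 31.8% and 29.9% in CUMS (95% Wilson intervals 28.7 to 36.4, 37.5 to 45.1, 28.0 to 35.8 and 26.0 to 34.2). Both CUMS values were below both control values, but control library a and the CUMS libraries lay within each other's intervals (exact permutation p = 0.333). Groups without overlap in the 5p share were found for 34.3% of the 175 hairpins with at least 100 reads on both arms together in every library. For miR-301a the 5p share was 0.504% and 0.652% in control, against 0.758% and 0.559% in CUMS, with overlap. MiR-130a-5p, the arm of miR-130a that is no member of the list, had 1 read in control library b and 0 in the other 3, against at least 4045 of the 3p arm in each.

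Thus miR-130b kept both arms and miR-130a and miR-301a almost only the 3p arm. Over the 175 hairpins the median share of the less abundant arm was 1.38%. The share of 33.8% in miR-130b was larger than in 89.7% of these hairpins, and the 0.618% of miR-301a was larger than in 37.7%. For miR-130a, only 2.86% had a smaller one.

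MiR-130b-3p and miR-301b-3p come from hairpins 257 bases apart, and their ratio can be read within each library without any scaling. It was 1.76 and 1.64 in control, against 2.02 and 2.25 in CUMS, means of 1.70 ± 0.08 and 2.13 ± 0.16 (SD, n = 2). Both CUMS ratios were above both control ratios (exact permutation p = 0.333, the smallest this design allows). No counting interval and no share over other pairs was computed for this ratio. Counting error in the smallest library of miR-301b-3p was 8.19%. The log2 ratios of these neighbours, -0.07 for miR-130b-3p and -0.39 for miR-301b-3p, thus lay apart, and the difference between them passed no test.

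**Figure D4:**
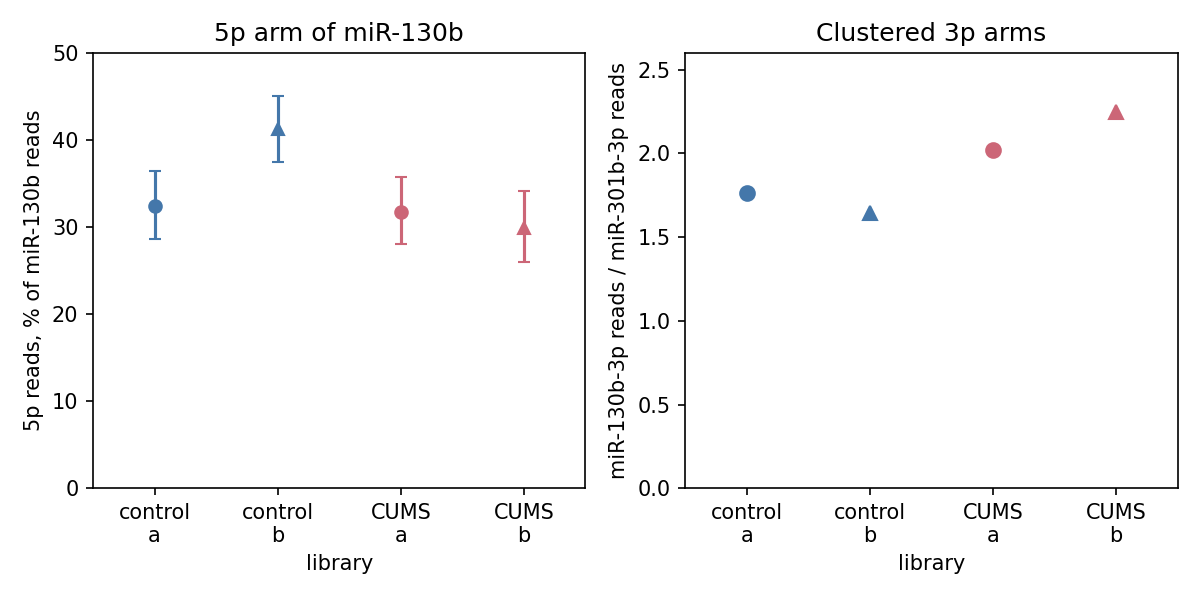
Left, 5p reads as a percentage of all miR-130b reads in each library with 95% Wilson intervals; right, reads of miR-130b-3p divided by reads of miR-301b-3p. Control library b is highest on the left at 41.2%, and on the right both CUMS libraries, at 2.02 and 2.25, are above the control libraries at 1.76 and 1.64.

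The pattern of miR-130a-3p over the 4 libraries was compared with that of 277 miRNAs with at least 100 reads in each library, by the largest difference in centred log2 normalized reads. Outside the family, miR-433-3p, miR-485-5p and let-7i-5p were the most like it, with largest differences of 0.052, 0.055 and 0.063. MiR-130b-3p, at 0.054, and miR-301a-3p, at 0.061, were as close, while miR-301b-3p, at 0.22, and miR-130b-5p, at 0.41, were farther away. With 4 libraries this likeness is a description of these samples.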

How the data were processed

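Small RNA of the medial prefrontal cortex was sequenced in 2 control and 2 CUMS libraries. Per the study's methods, reads of 18 to 25 nt were matched without mismatch to miRBase precursors and counted for a mature miRNA at an overlap of at least 16 nt, allowing offsets. The submitters' processing notes name Bowtie, DESeq and mm10, without versions. The authors deposited for each miRNA the mean signal of each group, a count divided by DESeq size factors, with an overall mean and their own fold changes and p-values, which were not used. The 2 mean columns bear the letters A and B and no group names, and were read as control and CUMS, the groups under which the study prints them. Each mean is a sum of 2 scaled whole counts. The scaling steps were solved from low values, and 100% of the means in both groups gave whole reads (relative residual under 1e-09), with 2 control means left ambiguous. Recovered libraries cannot be tied to replicate numbers.

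Recovered reads were tested with edgeR 4.0.16 (quasi-likelihood, TMM, group only, Benjamini-Hochberg adjustment) in R 4.3.3 on the 719 miRNAs that reached 5 reads in any library. DESeq2 1.42.0 and limma 3.58.1 were alternatives. On simulated data for 719 miRNAs, edgeR found 197 of 200 miRNAs changed 4-fold, with 6 false calls. The simulated dispersion (spread between libraries beyond counting error) was fixed at 0.02. Changes as small as those of the family were not simulated, so this check does not give the power to find them. Wilson intervals, exact intervals of library ratios and floors cover counting error only. DESeq2 intervals also cover the fitted spread between libraries. The members and the lists were chosen with earlier results of these data known. Named miRNAs were all 6 members, other miRNAs with their 3p seed, other arms of their hairpins, the 3 most like miR-130a-3p and the markers.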

Additional observations from a re-analysis of the deposited data

How the results depend on the processing

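The log2 ratios of group means kept their direction under all alternatives tried for miR-130a-3p, miR-130b-5p and miR-301b-3p. With reads scaled to the library total, miR-130a-3p was at -0.0084 and miR-130b-3p turned to 0.0087; this scaling moved the median of all miRNAs by 0.08. MiR-130b-3p was at -0.10 with TMM scaling and by edgeR, and at -0.086 with the means rescaled to a median of 0. Leaving out each library in turn gave -0.14 to -0.029 for miR-130a-3p, -0.08 to -0.06 for miR-130b-3p, -0.73 to -0.16 for miR-130b-5p, -0.47 to -0.32 for miR-301b-3p, -0.21 to 0.01 for miR-301a-3p (higher only without control library b) and -0.21 to 0.40 for miR-301a-5p. The count of members past the fold was 2 at a log2 threshold of 0.32, against 42.2% of all miRNAs with a group mean of at least 5. With a library left out, only miR-130b-5p went past 1.5-fold, at -0.73 without control library a. The share of all miRNAs past the fold with a library left out was not computed. Members without overlap numbered 2 with reads scaled to the library total and 4 with TMM scaling. The share over all miRNAs was not computed for these scalings.

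Unadjusted edgeR calls at p under 0.05 numbered 18 of 392 with at least 50 reads in a library, and 20 to 41 with a library left out. Members among them numbered 0 to 1, with these unadjusted edgeR values: miR-130b-5p without control library a (0.0335) and miR-301b-3p without CUMS library a (0.0388), neither past an adjusted p of 0.05. Adjusted calls over all miRNAs numbered 0 to 12 with a library left out, the 12 being without control library a. In these edgeR fits the lone library is assumed to vary like the other group. The cause of these changes was not tested. No paired analysis was possible because the recovered libraries cannot be tied to the replicate numbers of the labels. With 2 libraries a group, exact tests stop at p = 0.333, and the 21 to 34 reads of miR-301a-5p limit it most.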
